A study of Mus musculus with 214 samples.

Results

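Livers of mice without the repair enzyme MGMT, collected 10 months after exposure to N-nitrosodimethylamine (NDMA), were compared with livers of saline-treated mice of the same genotype and age by RNA sequencing of transcript 3′ ends. These livers were chosen by their labels alone (genotype Mgmt-/-, month 10) and made up 25 of the 213 samples of the series that had values, 13 after NDMA and 12 after saline. All of the mice were RaDR+/+;GPT+/+ on a C57BL6 background, that is, they carried a recombination reporter and a mutation reporter beside the Mgmt deletion. NDMA was injected into the peritoneum at 3.5 mg/kg on postnatal day 8 and at 7 mg/kg on postnatal day 15, and the control pups received saline. The NDMA group held 6 males and 7 females and the saline group 5 males and 7 females, each a separate mouse. Litters were assigned to a treatment at birth, while the paper also calls the controls sibling littermates and used separate litters where possible. The litter of each mouse is not given in the sources used here, so that litter effects could not be separated from treatment. All 25 libraries carried the same batch label. The study pooled samples into subpools before amplification, and the subpool of each library is not given. The codes of all males run below those of all females, so that sex and subpool may coincide. A piece of liver of at most 30 mg was taken for RNA, and whether the piece held tumor tissue was not stated. Wild-type (WT) mice, used here only where the genotypes are compared, were RaDR+/+;GPT+/+ with intact Mgmt and received the same injections.

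NDMA is a small nitrosamine that is activated in the liver mainly by the cytochrome P450 enzyme CYP2E1, which is most abundant in the pericentral hepatocytes around the central vein. The activated compound methylates DNA, and O6-methylguanine is the most mutagenic of its lesions because it pairs with thymine. MGMT removes that methyl group by taking it onto its own cysteine, a repair step that animals without the enzyme lack. NDMA is a classic liver carcinogen in rodents.

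The NDMA-treated livers were sequenced to between 713584 and 2752555 reads (median 1520036) and the saline-treated livers to between 816013 and 1902743 reads (median 1081986), so that the NDMA libraries were on the whole the deeper ones. Of 19540 genes in the table, 17747 had at least 1 read in these livers and 10066 had a mean normalized count of at least 5 and were tested. Values below are normalized counts, that is reads scaled by a size factor for each library, and counting error limits those under about 10. Transcripts of Mgmt itself were near 0, at 0 to 9.67 normalized counts (median 1.59, n = 25), against 16.2 to 65.7 (median 39.0, n = 23) in WT livers of the same age. The tables of the genotypes were scaled separately, and the position of the deletion relative to the sequenced 3′ end is not given in the sources used here, so that this check is a partial one. The labelled sexes fit the data in all 25 livers: Xist ran from 0 to 11.6 normalized counts in males and from 153 to 1696 in females, and Ddx3y from 21.2 to 133 in males and from 0 to 3.00 in females. No pair of libraries within a group agreed within sampling noise, the lowest chi-square per degree of freedom among 144 pairs being 2.35.

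The liver marker Alb was the most abundant of the hepatocyte identity genes in both groups, with a mean of 114224 normalized counts after saline and 94586 after NDMA. Of the markers of neighboring organs, the summed level of 10 kidney genes was at most 1.94 normalized counts in saline-treated and 2.15 in NDMA-treated livers. In bulk tissue, fewer cells of a type and less RNA per cell cannot be told apart, which holds for every gene group described here.

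On the first principal component of all tested genes (27.7% of the variance), 2 NDMA-treated males, D209016 at −100.0 and D209018 at −95.0, lay far from the other 23 livers, which spread from −28.1 to 42.9. Both stood apart from the rest before any comparison, and the main counts below are therefore given also without them. Ribosomal protein genes took 1.63% of the reads of D209018 and 1.29% of those of D209016, against at most 1.02% in any saline-treated liver. The part of these shares in the results was not tested.

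**Figure D1:**
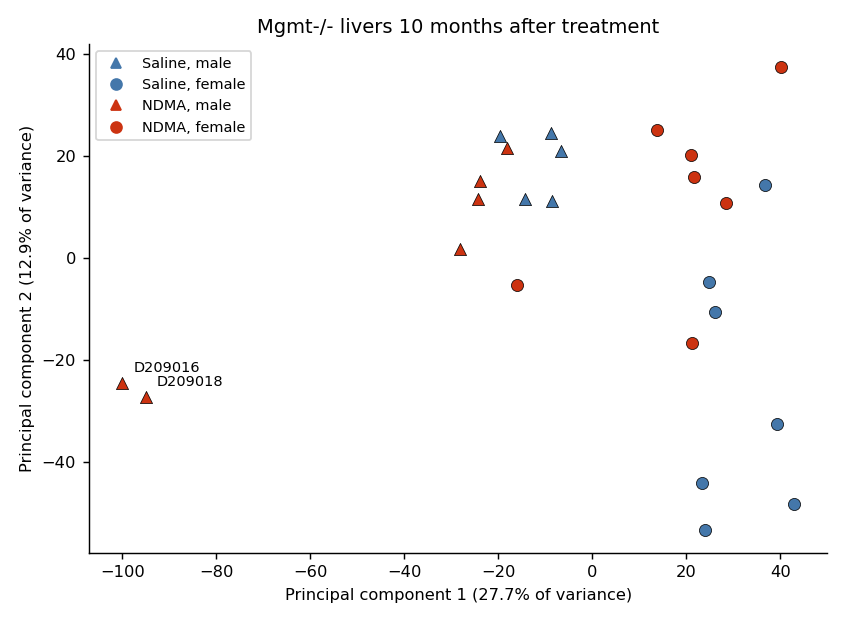
Principal components 1 and 2 (percent of variance on each axis) of log2 normalized counts over all tested genes, with 1 point per liver (triangles males, circles females, blue saline, red NDMA). The NDMA-treated males D209016 and D209018 lie at −100.0 and −95.0 on component 1, and all other livers lie between −28.1 and 42.9.

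Treatment took 31.8% of the variation of the 1000 most variable genes within sex, against a median of 8.14% when treatment labels were permuted within sex (permutation test, p = 1e-05, the smallest that 100000 permutations can give). Without D209016 and D209018 the share was 30.2%. Among the 10066 genes, 478 were higher after NDMA (4.75%) and 301 were lower (2.99%), a call needing an adjusted p under 0.05 in limma with sex as a term and a log2 fold change beyond 0.58. In all, 7.74% of the tested genes were called. Without D209016 and D209018, 441 genes were higher and 217 lower, and 537 of the 779 calls remained. With the log2 of the total reads as a further term, the calls were 388 higher and 232 lower.

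Increases were the larger changes under the filter used here. A log2 fold change of more than 2 was reached by 36 of the genes that rose and 4 of those that fell, and a change of more than 3 by 7 and 0 genes. Some of these genes, such as Lrtm2 and Gldn, had saline medians of 0 and passed the filter through their NDMA values. When a mean of at least 20 was required, 242 of 6304 genes were higher and 267 lower, so that increases no longer outnumbered decreases. The 2 groups of livers did not overlap for 13 genes that rose (0.129% of the genes tested), which were Casp1, Cdh1, Ddr1, Gldn, Ifi27l2b, Klf6, Lrtm2, Ly6d, Ly6e, Scn8a, Spp1, Tff3 and Ubd. They did not overlap for 6 genes that fell (0.0596%), which were Acsl1, Crybg3, Nxpe2, Pdk1, Rmdn2 and Stard4. These values were divided by size factors, and in reads per total reads of the library 9 of the 13 and 3 of the 6 were still without overlap, Cdh1, Ddr1, Gldn, Klf6, Acsl1, Rmdn2 and Stard4 being the exceptions. With D209016 and D209018 left out, 16 genes lay wholly above and 6 wholly below the saline group.

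The largest increases included genes of secreted and surface proteins. Below, each range is followed by its median, a value after ± is the SE of a log2 fold change, and gene positions are those of GRCm38. Tff3 (chr17:31125306-31129646), a trefoil peptide secreted by mucus-producing epithelia, ran from 0 to 15.6 (median 1.87) normalized counts after saline and from 16.1 to 1585 (median 79.9) after NDMA. Its log2 fold change was 4.89 ± 0.50 (adjusted p = 3.27e-07, limma), and every NDMA-treated liver was above every saline-treated one, with the male D209016 the highest. Ly6d (chr15:74762056-74763620), which encodes a small lipid-anchored surface protein, ran from 1.59 to 64.2 (median 11.8) after saline and from 81.8 to 1421 (median 206) after NDMA. The groups did not overlap here either, and the log2 fold change was 3.97 ± 0.45 (adjusted p = 2.05e-06). Genes of the Ly6 family resemble each other, and how the counting divided reads among them was not given in the sources used here. Cib3 (chr8:72204335-72212837), a calcium- and integrin-binding protein, was at 0 to 14.3 (median 6.85) after saline and at 14.1 to 748 (median 162) after NDMA, a log2 fold change of 4.73 ± 0.36 (adjusted p = 8.86e-10). In 12 of 13 NDMA-treated livers it exceeded the highest saline-treated value.

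Several of the strongest increases began from almost no reads. Lrtm2 (chr6:119315133-119330766), a leucine-rich repeat membrane protein, had no read in any of the 12 saline-treated livers and 131 reads over the 13 NDMA-treated ones, at 2.31 to 22.5 (median 9.71) normalized counts. Against a floor of 3 reads over the saline group, it was at least 31.8-fold higher. Gldn, the gene of gliomedin, an adhesion protein of nerve fibers, had 1 read over the saline group and 160 over the NDMA group. The lowest NDMA-treated liver, D209018, and the highest saline-treated one, D209012, held 1 read of it each, so that only their size factors set these 2 livers apart. Scn8a, a voltage-gated sodium channel, ran from 0 to 2.50 (median 0.45) after saline and from 4.16 to 34.2 (median 8.58) after NDMA, again without overlap (log2 fold change 2.70 ± 0.35).

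Among the other large increases, Ubd, a ubiquitin-like modifier induced by inflammatory cytokines, rose, with 0 to 9.72 (median 2.13) after saline and 12.6 to 215 (median 30.0) after NDMA (log2 fold change 3.73 ± 0.38, adjusted p = 5.63e-08). Casp1, the inflammasome protease, rose, with 0 to 9.53 (median 1.63) after saline and 10.5 to 70.6 (median 23.6) after NDMA (log2 fold change 3.25 ± 0.37). For both genes the lowest NDMA-treated liver was above the highest saline-treated liver. Casp12, its neighbor among the caspases, rose by 2.93 ± 0.34 on the log2 scale, and Mmp12, the macrophage elastase, by 2.90 ± 0.36. Gipc2, Gsta1, Cxcl14 and Prtn3 rose by 2.71, 2.65, 2.63 and 2.67 on the log2 scale. Prtn3, a protease of neutrophil granules, was the least uniform of these, at 0 to 41.4 (median 0.88) after saline and at 2.81 to 317 (median 12.0) after NDMA, with only 3 NDMA-treated livers above all saline-treated ones.

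**Figure D2:**
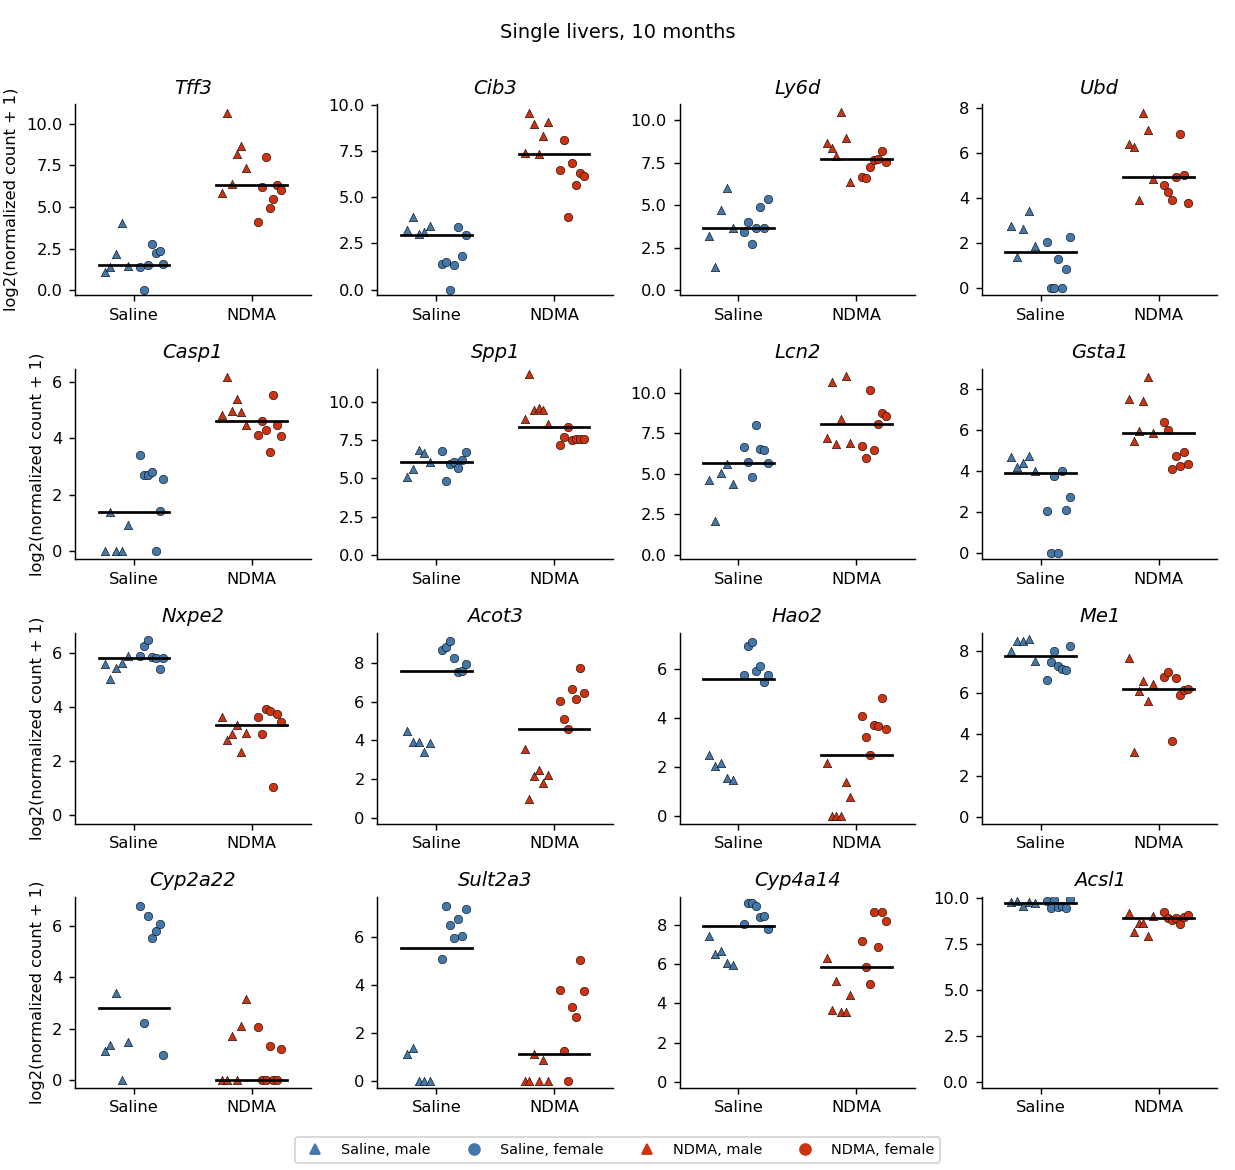
Log2(normalized count + 1) of 16 genes in single livers, saline on the left and NDMA on the right of each panel (triangles males, circles females, the black line the group median). Tff3, Ly6d, Ubd, Casp1 and Spp1 show no overlap between the groups in the upward direction and Nxpe2 and Acsl1 none in the downward direction, whereas Cyp2a22 and Sult2a3 reached their highest values in saline-treated females.

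Genes known from fetal liver and liver tumors were raised in NDMA-treated livers, 12 of 26 of them by a call. Of 37 genes on this list, 26 were tested, 12 were higher and 1 was lower, and the median log2 fold change was 0.99 against −0.01 over all genes tested. The mean log2 level of a list, here and below, covers its tested members only and is set against the mean of the saline-treated livers. For this list it ran from −0.58 to 0.49 in saline-treated livers and from 0.93 to 1.83 in NDMA-treated livers, and all 13 lay above all 12. The filter admits genes such as Tff3 (median 1.87 after saline, 79.9 after NDMA) through their NDMA values. The list was also written with earlier results known, so that this separation is a description and no test. The counts were the same without D209016 and D209018, at 12 higher and 1 lower. Spp1, which encodes the secreted glycoprotein osteopontin, ran from 27.7 to 115 (median 65.8) after saline and from 147 to 3669 (median 336) after NDMA (log2 fold change 2.48 ± 0.33, adjusted p = 1.52e-05). Scd2, a fatty acid desaturase, ran from 1.78 to 11.1 (median 5.93) and from 9.26 to 139 (median 29.0), with 12 NDMA-treated livers above all saline-treated ones (log2 fold change 2.62 ± 0.33). Lcn2, the iron-scavenging lipocalin, rose by 2.68 ± 0.63 and varied widely, at 61.1 to 2091 (median 263) after NDMA. The imprinted H19 transcript rose by 0.94 ± 0.26 (SE, adjusted p = 0.0190), whereas Afp, alpha-fetoprotein, had an estimate of 1.04 ± 0.49 that did not pass (adjusted p = 0.186). The member that fell was Lgr5, a Wnt target of pericentral hepatocytes, at 9.36 to 27.0 (median 14.9) after saline and 2.78 to 31.9 (median 5.79) after NDMA (log2 fold change −0.99 ± 0.27, adjusted p = 0.0144). Glul and Axin2, other Wnt targets on the list, had estimates of 0.02 and −0.01 and did not pass.

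Markers of cholangiocytes and of the ductular reaction, in which bile duct-like cells multiply, were raised in part. Of 30 genes, 14 were tested, 7 were higher and none was lower, with 6 higher without D209016 and D209018. The mean level of its 14 tested members lay above all saline-treated livers in all 13 NDMA-treated livers (−0.53 to 0.24 against 0.62 to 2.15). This separation, too, is a description, because Tff3 on this list passed the filter through its NDMA values. The summed level of the list ran from 1581 to 2829 normalized counts after saline (median 2347) and from 2252 to 14153 after NDMA (median 3565), and its most abundant gene was Clu, clusterin, which hepatocytes also make. Tff3, Spp1 and Lcn2 stand on this list as well as on the tumor list. Sox9, the transcription factor that defines bile duct cells, had an estimate of 0.16 and did not pass (adjusted p = 0.744). The part of bile duct cells in the increases was not tested.

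Interferon-stimulated genes were raised widely. Of 40 type I interferon response genes, 32 were tested, 18 were higher and none was lower (median log2 fold change 0.72), and 15 were higher without D209016 and D209018. The list mean of 8 of the 13 NDMA-treated livers lay above all saline-treated ones. Bst2, tetherin, which holds budding viruses at the cell surface, ran from 154 to 286 (median 236) after saline and from 239 to 635 (median 369) after NDMA. Its log2 fold change was 0.83 ± 0.14 (adjusted p = 0.000220), and 11 NDMA-treated livers lay above all saline-treated ones. Rsad2, viperin, ran from 7.94 to 22.3 (median 16.4) and from 16.7 to 60.9 (median 31.6), with 12 of 13 NDMA-treated livers above all saline-treated ones (log2 fold change 1.16 ± 0.20). Oasl2, of the oligoadenylate synthetase family, rose by 1.96 ± 0.40, and Ifi44 by 1.67 ± 0.34 with wide overlap, at 1.78 to 35.7 (median 7.86) against 4.22 to 91.9 (median 22.8).

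Of 34 interferon gamma response genes, 25 were tested, 10 were higher and none was lower (8 without D209016 and D209018), and all 25 had an estimate above 0. Single livers overlapped widely, with the list mean of only 4 NDMA-treated livers above all saline-treated ones. Among the members that rose were Casp1 and Ubd, above, the adhesion molecule Icam1 (log2 fold change 1.07 ± 0.18) and the serine protease inhibitor Serpina3g (1.20 ± 0.30). Gbp2, a textbook member of this response, had an estimate of 0.39 and did not pass (adjusted p = 0.474). Of 12 MHC class II genes, 8 were tested and 6 were higher (also 6 without D209016 and D209018), with a median log2 fold change of 1.51. Their list mean lay above all saline-treated livers in 7 NDMA-treated livers. H2-Aa, a class II chain, ran from 31.1 to 108 (median 57.4) after saline and from 77.5 to 533 (median 196) after NDMA (log2 fold change 1.82 ± 0.28), and 11 NDMA-treated livers were above all saline-treated ones. Ctss, cathepsin S, which trims the class II invariant chain, ran from 21.4 to 118 (median 75.2) and from 91.6 to 974 (median 190.2) (log2 fold change 1.58 ± 0.31). Of 22 MHC class I genes, all tested, 17 had an estimate above 0 (median log2 fold change 0.30) and 2 were higher, H2-Q6 (1.13 ± 0.34) and the immunoproteasome subunit Psmb10 (0.59 ± 0.19), and without D209016 and D209018 none was, H2-Q6 then falling below the mean of 5. Genes of the H2 region resemble each other and may share reads.

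The interferon-stimulated response element, to which interferon-activated factors bind, holds the letters GAAANNGAAA, and a search for them on both strands of the 250 bases before each gene's start (RefSeq, GRCm38.p6) found them in 936 of 27025 genes (3.46%). Of the 36 interferon and antigen presentation genes that rose, 30 matched a window and 7 held the letters (23.3%), namely Bst2, Rsad2, Ctss, Isg15, Cxcl10, Irgm1 and Trim30a. Windows of 3 genes described above are shown 5′ to 3′ on the gene's strand, with the matching letters in capitals, and each ends at the base before the gene's start.
Bst2 (chr8:71537473-71537722, minus strand): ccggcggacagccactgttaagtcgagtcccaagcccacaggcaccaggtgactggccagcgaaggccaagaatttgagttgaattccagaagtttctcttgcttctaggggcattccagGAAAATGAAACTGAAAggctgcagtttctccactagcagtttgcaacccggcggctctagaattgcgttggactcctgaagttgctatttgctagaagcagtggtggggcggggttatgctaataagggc
Rsad2 (chr12:26456453-26456702, minus strand): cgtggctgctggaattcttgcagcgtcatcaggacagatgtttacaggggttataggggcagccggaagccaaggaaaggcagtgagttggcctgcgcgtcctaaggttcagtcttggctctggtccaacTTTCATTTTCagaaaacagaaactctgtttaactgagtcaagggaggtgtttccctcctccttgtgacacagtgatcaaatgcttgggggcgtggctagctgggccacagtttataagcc
Ctss (chr3:95526536-95526785, plus strand): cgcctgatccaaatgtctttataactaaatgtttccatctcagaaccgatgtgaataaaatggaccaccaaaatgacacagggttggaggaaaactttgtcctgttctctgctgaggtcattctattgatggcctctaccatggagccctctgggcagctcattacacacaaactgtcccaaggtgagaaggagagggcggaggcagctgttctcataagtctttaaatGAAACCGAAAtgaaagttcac
In Bst2 the capitals cover 2 overlapping matches, the first of which begins at base −130, and in Ctss the match begins at −21. In Rsad2 it begins at −120 and lies on the opposite strand, so that it reads as TTTCNNTTTC. A match of letters is a description of the window and shows no binding.

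Markers of macrophages and Kupffer cells, the resident macrophages of the liver, were raised as well. Of 42 genes, 36 were tested, 21 were higher and none was lower (median log2 fold change 1.02), and without D209016 and D209018 15 were higher. The list mean of 7 NDMA-treated livers lay above all saline-treated ones. The summed level of the list was 708 to 3130 normalized counts after saline (median 1427) and 1560 to 10611 after NDMA (median 2986). Its most abundant member over both groups was Spp1 (medians 65.8 after saline and 336 after NDMA, with 3669 in D209016 alone), which bile duct cells also make. Laptm5, a lysosomal protein of blood cells, ran from 9.72 to 50.5 (median 27.4) after saline and from 43.5 to 123 (median 66.6) after NDMA, with 10 NDMA-treated livers above all saline-treated ones (log2 fold change 1.495 ± 0.23). Cd14, the endotoxin co-receptor, rose by 2.23 ± 0.35. Cd163, the hemoglobin scavenger receptor of resident macrophages, was at 2.89 to 20.0 (median 11.5) after saline and at 1.39 to 51.7 (median 4.55) after NDMA and did not pass (adjusted p = 0.450). The part of macrophage RNA in the interferon and class II results was not tested.

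Few markers of other blood cells could be tested, and the part of sequencing depth in this was not tested. Of 39 T and NK cell genes, 4 were at 0 or without a row (Ctla4, Trac, Trbc1 and Trbc2) and only Ccl5, a chemokine, passed the filter on low values. It rose, with 1.74 to 18.8 (median 10.7) after saline and 14.5 to 80.2 (median 24.7) after NDMA (log2 fold change 1.47 ± 0.32), and the summed level of the list ran from 17.4 to 73.9 normalized counts after saline and from 54.6 to 176 after NDMA. For B and plasma cells, the 11 immunoglobulin genes on the list were at 0 or without a row, and of 5 genes tested only the leukocyte tetraspanin Cd37 was higher (log2 fold change 1.34 ± 0.32). Dendritic cell markers summed to 16.9 to 48.0 normalized counts after saline and to 20.8 to 81.5 after NDMA, and Irf8, the 1 of 2 tested that rose, lost its call without D209016 and D209018 (adjusted p = 0.0569). Of 8 neutrophil genes tested, Lcn2 and Prtn3 were higher, both of which other cells can make, whereas S100a8, S100a9, Camp and Ngp had estimates from 0.54 to 0.90 and did not pass. The list's most abundant gene, Wfdc21, was at 4657 to 12812 (median 6283) after saline and at 2053 to 14118 (median 4996) after NDMA.

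**Figure D3:**
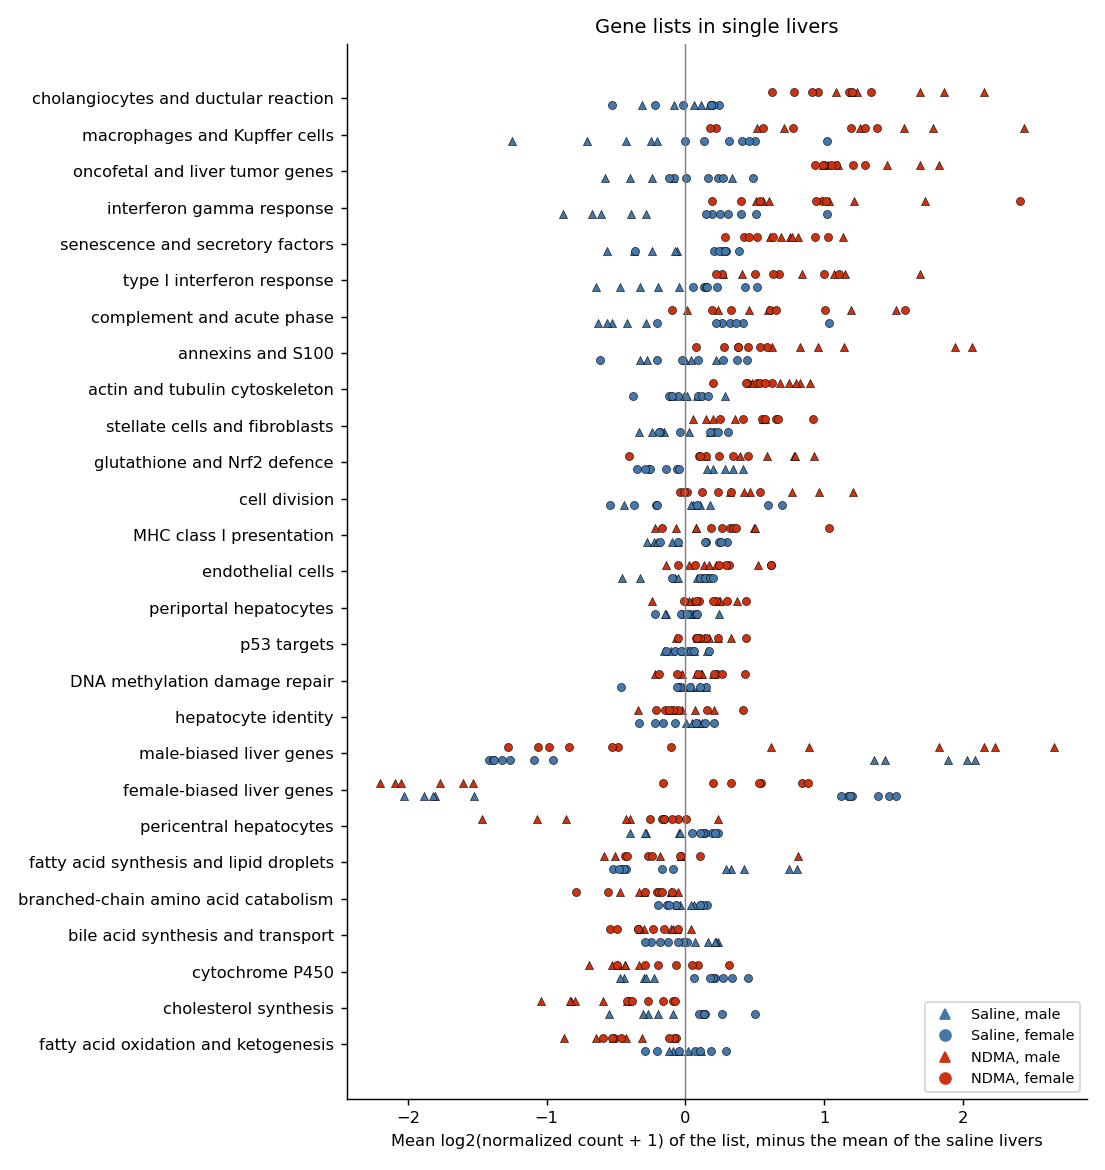
Mean log2(normalized count + 1) of the tested genes of each list with at least 10 of them, minus the mean of the saline-treated livers (x axis, log2 units), with 1 point per liver (triangles males, circles females, blue saline, red NDMA). The cholangiocyte and the oncofetal lists do not overlap between the groups, and the lists of male-biased and female-biased genes separate the sexes.

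Acute-phase and complement genes were raised in part. Of 42 tested, 15 were higher and none lower (median log2 fold change 0.54), with 11 higher without D209016 and D209018. The list mean of only 3 NDMA-treated livers lay above all saline-treated ones. In males alone 16 of 43 were higher, but 5 without these 2 livers, and in females alone 2 of 42 were higher. Of all genes tested, 4.21% were higher in males alone and 1.36% in females alone. Hp, haptoglobin, ran from 3942 to 8902 (median 6106) after saline and from 6196 to 33183 (median 10350.0) after NDMA, with 10 NDMA-treated livers above all saline-treated ones (log2 fold change 0.95 ± 0.21). Cp, ceruloplasmin, rose by 0.89 ± 0.19 and C9, of the membrane attack complex, by 0.83 ± 0.16. Genes of the cytoskeleton were raised in part too. Of 31 actin and tubulin cytoskeleton genes, 14 were higher and none lower (11 without D209016 and D209018), with 13 of 31 higher in males alone and 2 of 30 in females alone, and the list mean of 12 NDMA-treated livers lay above all saline-treated ones. Krt18, the main keratin of hepatocytes, ran from 71.4 to 270.2 (median 193) and from 195 to 628 (median 454) (log2 fold change 1.36 ± 0.18), and Vim, vimentin, rose by 1.18 ± 0.20. Among annexins and S100 proteins, 6 of 17 tested genes were higher and none lower (5 without D209016 and D209018), among them Anxa13 (0 to 5.43 (median 0.90) after saline, 2.78 to 19.5 (median 9.67) after NDMA, log2 fold change 2.36 ± 0.36), the calcium-binding S100a11 (5.43 to 23.5 (median 13.7) after saline, 14.5 to 200.2 (median 37.5) after NDMA, log2 fold change 1.83 ± 0.24) and Anxa5 (1.499 ± 0.19). Of 36 genes of stellate cells and fibroblasts, 12 were higher and 2 lower (10 and 2 without D209016 and D209018). Col1a1, the major fibrillar collagen, was low in all livers, at 0 to 8.69 (median 3.54) after saline and at 5.799 to 22.2 (median 12.9) after NDMA, and the log2 fold change was 1.66 ± 0.30. The summed level of that list overlapped fully, at 1983 to 3702 normalized counts after saline and 1888 to 3753 after NDMA. Its mean log2 level ran from −0.34 to 0.31 after saline and from 0.05 to 0.92 after NDMA. By that mean, 9 NDMA-treated livers lay above all saline-treated ones. Of 32 endothelial genes, only Lyve1 (1.46 ± 0.23), a hyaluronan receptor of sinusoids, and Cd34 (1.29 ± 0.36) were higher. Among all genes tested 4.75% were higher, so that this count is near the background.

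Of 25 p53 targets tested, 2 were higher and 1 lower, with a median log2 fold change of 0.03, beside 4.75% higher and 2.99% lower among all genes, so that these counts are near the background. Cdkn1a, the cell cycle inhibitor p21, ran from 1.48 to 23.5 (median 8.40) after saline and from 19.5 to 105 (median 35.5) after NDMA, with 11 NDMA-treated livers above all saline-treated ones (log2 fold change 2.13 ± 0.31, adjusted p = 2.2e-05). Btg2, an antiproliferative p53 target, rose by 1.22 ± 0.26, and Perp, a desmosomal p53 target, fell (log2 fold change −0.86 ± 0.16). Of 28 genes for the repair of methylation damage, only Lig1, the ligase that seals nicks after replication and excision repair, was higher (1.94 to 14.3 (median 6.66) after saline, 4.70 to 19.3 (median 15.2) after NDMA, log2 fold change 0.98 ± 0.25). The count of this list, too, is near the background. Of 18 cell division genes tested, Top2a, topoisomerase II alpha (1.84 ± 0.34), and Cdca8, of the chromosomal passenger complex (1.20 ± 0.39), were higher, and Cdca8 was not tested without D209016 and D209018 because its mean fell below 5. Senescence and secretory factors counted 10 higher and 1 lower of 28 (8 and 0 without D209016 and D209018), with Cdkn1a, Lgals3 (galectin-3, 1.61 ± 0.27) and the chemokine Cxcl14 among those that rose.

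Among detoxifying enzymes, more glutathione genes were called higher than lower and more cytochromes P450 lower than higher, while most members of both lists did not pass. Of 34 glutathione and Nrf2 genes, 10 were higher and 2 lower (9 and 2 without D209016 and D209018). Gstm3, a glutathione S-transferase, ran from 44.3 to 491 (median 135) after saline and from 197 to 2183 (median 653) after NDMA, with 9 NDMA-treated livers above all saline-treated ones (log2 fold change 1.96 ± 0.24), and the selenoprotein Gpx3 rose by 1.84 ± 0.29. Gsta and Gstm genes are near-identical in sequence and their reads may be shared. Of 54 cytochrome P450 genes, 13 were lower and 5 higher, and without D209016 and D209018 8 were lower and 4 higher. Cyp2e1, the enzyme that activates NDMA, ran from 2097 to 4705 (median 4024) after saline and from 993 to 3766 (median 2294) after NDMA, with 6 NDMA-treated livers below all saline-treated ones (log2 fold change −0.86 ± 0.18, adjusted p = 0.00208). Cyp2c37 fell further (444 to 1922 (median 1434) after saline, 108 to 928 (median 432) after NDMA, log2 fold change −1.52 ± 0.18), and Cyp2c29 by a log2 fold change of −0.81 ± 0.17. Cyp2c genes form a cluster of close copies.

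Of 28 pericentral genes, 10 were lower and 1 was higher, and the counts were unchanged without D209016 and D209018. In females alone 8 of 28 were lower and in males alone 1 of 28 (3 without these 2 livers). The shares over all genes tested were 1.39% and 1.58%. The list median was −0.33 in females and −0.64 in males, and the difference between the sexes was not tested. Oat, ornithine aminotransferase, ran from 1484 to 6576 (median 2209.8) after saline and from 153 to 1876 (median 1174) after NDMA (log2 fold change −1.25 ± 0.27), and 10 NDMA-treated livers lay below all saline-treated ones. Rgn, regucalcin, fell likewise (log2 fold change −0.92 ± 0.14), and the member that rose was Gstm3. Of 31 periportal genes, 7 were higher and none lower, although the median of the list was −0.15. They included Cdh1, E-cadherin, without overlap (0 to 14.3 (median 5.95) after saline, 14.6 to 56.1 (median 30.6) after NDMA, log2 fold change 2.34 ± 0.32), Cyp2f2 (0.83 ± 0.18) and the lipid droplet protein gene Hsd17b13 (1.18 ± 0.19). Of 26 hepatocyte identity genes, only Apoa1 rose (0.58 ± 0.19) and only Nr1i3, the xenobiotic receptor CAR, fell (−0.62 ± 0.14), and Apoa1 lost its call without D209016 and D209018 (adjusted p = 0.107). These counts are near the background of 4.75% higher and 2.99% lower among all genes tested.

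Part of the genes of lipid metabolism fell. Of 37 genes of fatty acid oxidation and ketogenesis, 8 were lower and none higher, 36 had an estimate below 0, and 5 were lower without D209016 and D209018. Males alone had 7 of 36 lower (also 7 without these 2 livers) and females alone 1 of 36. The shares over all genes tested were 1.58% and 1.39%. The list median was −0.38 in males and −0.43 in females, and the difference between the sexes was not tested. Acsl1, which activates long-chain fatty acids, ran from 707 to 989 (median 865) after saline and from 242 to 599.6 (median 480.1) after NDMA, and every NDMA-treated liver was below every saline-treated one (log2 fold change −0.92 ± 0.13, adjusted p = 1.83e-05). Of 24 cholesterol synthesis genes, 7 were lower, none was higher and all had an estimate below 0, and 9 were lower without D209016 and D209018. The late-pathway enzymes Tm7sf2, Dhcr7 and Sc5d had log2 fold changes of −0.79, −0.79 and −0.64. Stard4, a cholesterol transfer protein, ran from 232.2 to 383 (median 289) after saline and from 56.1 to 231.8 (median 204) after NDMA, so that the groups did not overlap but touched.

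Of 35 genes of fatty acid synthesis and lipid droplets, 11 were lower and 4 higher (8 and 4 without D209016 and D209018). In males alone 11 of 35 were lower and 2 higher (6 and 2 without these 2 livers), and in females alone 0 of 33 were lower and 3 higher. Of all genes tested, 1.58% were lower in males alone and 1.39% in females alone. The median log2 fold change of the list was −0.74 in males and 0.13 in females, and the difference between the sexes was not tested for the list. Me1, the malic enzyme that supplies NADPH, fell, with 95.3 to 387 (median 219.6) after saline and 7.73 to 200.4 (median 71.0) after NDMA (log2 fold change −1.78 ± 0.39), while the desaturase Scd2, the lipid binding protein gene Fabp4 and the elongase Elovl1 rose by 2.62, 1.25 and 1.07 on the log2 scale. Of 26 bile acid genes, 5 were lower and 1 higher (4 and 2 without D209016 and D209018). Slc10a1, the sodium-dependent bile acid importer NTCP, ran from 664 to 1863 (median 992) after saline and from 282 to 898 (median 468) after NDMA, with 10 NDMA-treated livers below all saline-treated ones (log2 fold change −1.10 ± 0.19). Slco1b2, which takes up organic anions, fell likewise (−0.79 ± 0.13), as did the bile salt export pump Abcb11 (−0.69 ± 0.17). Of 24 genes of branched-chain amino acid catabolism, 4 were lower and none higher, among them Acat1 (−0.68 ± 0.15) and Ppm1k (−0.71 ± 0.21), the phosphatase of the pathway, which lost its call without D209016 and D209018 (adjusted p = 0.0709).

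Nxpe2 (chr9:48318006-48353454) had the largest decrease among genes with a name. It ran from 31.8 to 86.8 (median 54.6) normalized counts after saline and from 1.07 to 14.1 (median 9.10) after NDMA, without overlap, and the log2 fold change was −2.60 ± 0.24 (adjusted p = 6.71e-09). Lrtm1, Cnmd, Serpine2 and Zfp982 also fell, with log2 fold changes of −1.72, −1.95, −1.70 and −2.11. Acot3, a peroxisomal acyl-CoA thioesterase, fell, with 9.72 to 566 (median 188) after saline and 0.97 to 214 (median 23.5) after NDMA (log2 fold change −1.98 ± 0.27). Hao2, a peroxisomal hydroxyacid oxidase, was at 1.78 to 138 (median 47.9) after saline and 0 to 27.6 (median 4.70) after NDMA (−1.94 ± 0.30). Cyp4a14, a fatty acid omega-hydroxylase, was at 59.7 to 554 (median 241) after saline and 10.6 to 403 (median 56.9) after NDMA (−1.67 ± 0.37). All 3 are on the list of female-biased genes, and over both sexes the groups overlapped. Within females Hao2 did not overlap, at 43.4 to 138 after saline and 4.70 to 27.6 after NDMA, against 1.78 to 4.69 and 0 to 3.52 in males. Acot3 was at 185 to 566 and 23.5 to 214 in females and at 9.72 to 21.1 and 0.97 to 10.5 in males, and it overlapped in both sexes. Dct, the melanin enzyme dopachrome tautomerase, fell by a log2 fold change of −1.87 ± 0.34.

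Several more of the large decreases were in genes that, like Acot3 and Hao2, are expressed chiefly by females in mouse liver. Of 44 female-biased genes, 19 were lower and 3 higher, and without D209016 and D209018 13 were lower and 3 higher. The mean level of that list ran from 1.12 to 1.52 in saline-treated females and from −0.16 to 0.89 in NDMA-treated females, which did not overlap, and from −2.03 to −1.52 and −2.20 to −1.53 in males, which did. In females alone 15 of 44 tested members were lower and 2 higher, and in males alone 4 of 31 were lower and 5 higher (1 and 3 without D209016 and D209018). The shares over all genes tested were 1.39% lower and 1.36% higher in females alone, and 1.58% and 4.21% in males alone. The 1 lower member in males without these 2 livers is near that share. Cyp3a44, a cytochrome P450 of the female liver, was at 74.2 to 938 normalized counts (median 554) in saline-treated females and at 13.9 to 70.5 (median 48.0) in NDMA-treated females, while no male exceeded 7.78. Sult2a3, a sulfotransferase, was at 33.4 to 157 (median 88.6) in saline-treated and at 0 to 32.3 (median 7.50) in NDMA-treated females, while no male exceeded 1.59. In both genes every NDMA-treated female lay below every saline-treated female. Cyp2a22, Cyp3a16 and Sult3a2 showed lower medians in NDMA-treated females too, 0, 6.45 and 8.33 against 54.3, 74.9 and 67.6, with overlap. These families hold close copies, so that the values of single members are uncertain.

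Male-biased genes went in both directions. Of 37 tested, 11 were higher and 3 lower (6 and 2 without D209016 and D209018), and the list mean ran from −1.41 to −0.96 in saline-treated and from −1.28 to −0.10 in NDMA-treated females. In males it ran from 1.36 to 2.09 after saline and from 0.62 to 2.66 after NDMA. Cyp4a12a, an arachidonic acid hydroxylase of the male liver, rose by 1.76 ± 0.32 and the complement gene C6 by 1.49 ± 0.21. Mup20, the pheromone-binding urinary protein darcin, rose by 2.08 ± 0.31, with its highest values, 62389 and 45289 normalized counts, in the males D209018 and D209016. Selenbp2, a selenium-binding protein, rose by 2.63 ± 0.41, with 3711 in D209016.

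The difference between NDMA and saline itself differed between the sexes for 34 genes (0.338%, sex by treatment term, limma), of which 23 had a term above 0. The term is the male minus the female log2 fold change, so that it is above 0 both where a gene rose more in males and where it fell more in females. This count rested on single livers: it was 4 without D209016 and D209018, 5 without the saline-treated male D209014 and 404 without the NDMA-treated male D209015. The 6 genes with the lowest adjusted p, all 0.0164, were Cyp2b13, Lgals3, Sult2a2, Cd53, Ifi47 and Nmrk1. Cyp2b13, a female P450, had a term of 2.30 ± 0.40 (SE) through lower values in females: it was at 207 to 481 normalized counts in saline-treated and at 89.2 to 189 in NDMA-treated females, without overlap, and at 0.89 to 4.34 and 1.52 to 6.94 in males. Lgals3, the macrophage lectin galectin-3, had one of 2.19 ± 0.40, from medians of 11.1 to 105 in males and of 30.9 to 48.4 in females. For Cd53, a leukocyte tetraspanin, the medians were 7.04 and 29.8 in males and 20.6 and 16.1 in females, and for Ifi47, an interferon-induced GTPase, 16.5 and 98.7 in males and 39.8 and 35.8 in females.

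For Lgals3, Cd53 and Ifi47 the median of saline-treated males was below that of saline-treated females, so that the larger differences in males were measured from lower levels. Sex may coincide with the library subpool, and the part of this in the levels was not tested. For macrophage markers the list mean was −1.25 to −0.20 in saline-treated males and 0.00 to 1.02 in saline-treated females, against 0.52 to 2.44 and 0.18 to 1.38 after NDMA. In males alone 28 of 36 macrophage genes were higher, and in females alone 3 of 36. Over all genes tested, 4.21% were higher in males alone and 1.36% in females alone, so that fewer genes of any kind were called higher in females. The corresponding counts were 15 of 32 and 2 of 31 for type I interferon genes and 13 of 22 and 3 of 25 for interferon gamma genes. For class II genes they were 7 of 8 and 0 of 8, and no test of the lists between the sexes was made. The counts in males were 20, 13, 11 and 6, in this order, without D209016 and D209018. Of the 478 genes higher in both sexes together, 330 rose more in males by their estimates, and of the 301 lower genes 180 fell more in males. Without D209016 and D209018 the estimate was larger in males for 251 of 441 genes that rose and for 77 of 217 lower genes, so that for the lower genes the larger number passed from males to females. In males alone 415 genes were higher and 156 lower (326 and 155 with D209016 and D209018 left out), and in females alone 137 and 140.

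Single livers differed more from each other after NDMA, by a margin that was small once D209016 and D209018 were left out. These 2 were picked as the most distant livers, and no distant saline-treated liver was left out. Their removal had to lower the spread after NDMA, so that the fall does not show what the spread came from. The within-sex SD of the log2 values was larger after NDMA in 6528 of 10066 genes (64.9%), with a median ratio of 1.18. Without D209016 and D209018 it was larger in 5217 genes (51.8%), with a median ratio of 1.02. An SD more than 2 times that of the other group was found after NDMA in 1175 genes and after saline in 189, and without the 2 livers in 485 and 398. A gene-by-gene test of the spread (limma on deviations from the group median) called 1 gene (0.00993%), Lrtm2, whose saline-treated livers were all at 0 and thus had no spread, with 582 genes at an unadjusted p under 0.05. That test recovered 0% of 200 genes simulated with an added SD of 2. Measured from the group mean instead, a form chosen after seeing the data, it recovered 49% of them, with 12.5% of its calls false, and called 1 gene in these livers, again Lrtm2. Ambp, the gene of alpha-1-microglobulin and bikunin, illustrates a wider spread without a call: it was at 3770.3 to 4526 (median 4079) after saline and at 3130.1 to 11222 (median 4421) after NDMA, with within-sex log2 SDs of 0.09 and 0.55 (adjusted p of the spread 0.782 in limma, and 0.0511 measured from the group mean).

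A gene was counted as setting a liver apart where that liver lay at least 1 log2 unit above or below all 24 others. D209016 was set apart by 227 genes, 50 above and 177 below, and D209018 by 164, 3 above and 161 below, whereas the median was 20 in the NDMA and 32.5 in the saline group. The saline-treated female D209035 came next, with 9 above and 95 below, and then the saline-treated male D209013 with 1 and 95. D209016 and D209018 had 2555315 and 1821524 reads, whereas D209035 and D209013 had 957770 and 864319. The saline-treated female D209037, with 816013 reads, was set apart by 34 genes. Zeros are more frequent in shallow libraries, and the part of depth in these counts was not tested. In D209016, Fgf23, the phosphate-regulating hormone of bone, reached 200.1 normalized counts against at most 3.98 in any other liver. The beta-globin genes Hbb-bs and Hbb-b1, near-identical copies that may share reads, reached 35473 and 35447 against at most 4472 and 4466 elsewhere, and Hbb-bt reached 8795 against at most 933. The summed level of red cell genes was 62452 in the highest NDMA-treated liver against a group median of 3283, and 6092 in the highest saline-treated one. Amot, angiomotin, was at 345 in D209016 and at most 49.6 elsewhere. Genes set below included Nsmaf, Nufip1, Pik3r4, Gcc1 and Csnk2a2, which had no read in D209018 and medians from 10.7 to 14.4 in the other livers, and Enox2, Cryzl2, Ezh1, Rac2, Faim and Alkbh2, which had none in D209035. Pom121, of the nuclear pore, was at 1.16 in D209018 and had a median of 37.0 elsewhere. The NDMA-treated female D209040 held the most Malat1, a nuclear long noncoding RNA, at 15897 normalized counts, and the most Kcnq1ot1, at 280.5, against saline-treated ranges of 301 to 6407 and 3.52 to 103.

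**Figure D4:**
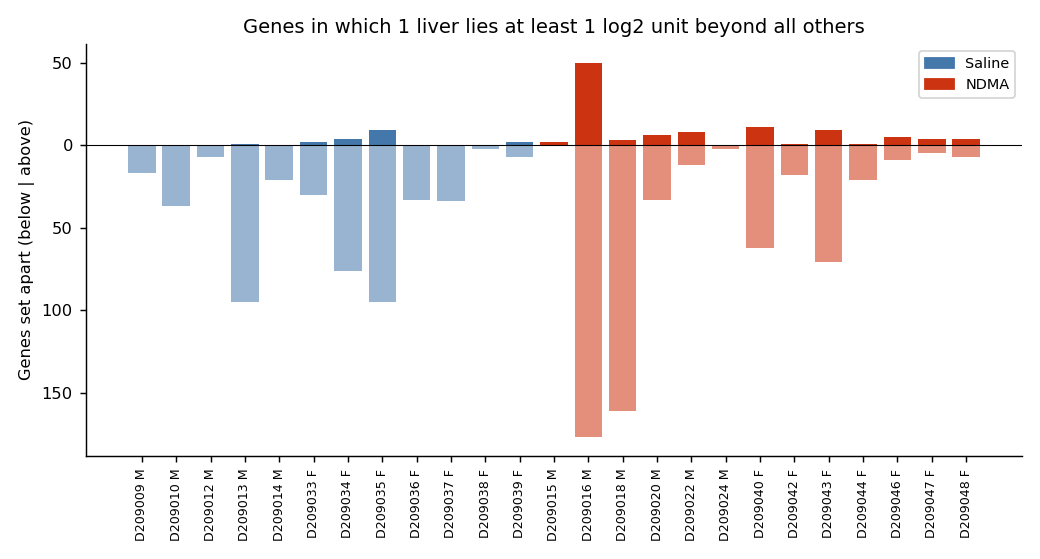
Number of genes (y axis) in which a liver lies at least 1 log2 unit above (dark bars, upward) or below (pale bars, downward) all others, by liver and sex (x axis), blue saline and red NDMA. D209016 and D209018 have 177 and 161 genes below and the next livers 95.

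Livers 10 weeks after the same injections, 8 of each treatment, carried the same batch label and had their own saline controls. They gave the earlier values of the same genes. Of the 478 genes higher at 10 months, 298 (62.3%) were also higher at 10 weeks, which is 42.3% of the 704 genes higher at that time. Of the 301 lower genes, 107 (35.5%) were also lower at 10 weeks, 28.5% of 376. Leaving out D209016 and D209018, the shared genes numbered 256 of 441 higher and 94 of 217 lower. The background at 10 weeks was 7.27% higher and 3.88% lower of 9681 genes tested. No higher gene and 1 lower gene had the opposite call. The median log2 fold change at 10 weeks and at 10 months was 2.55 and 0.99 for the oncofetal list, 0.79 and 0.72 for type I interferon genes, 1.47 and 1.51 for class II genes, 1.23 and 1.02 for macrophage markers and 0.25 and 0.54 for complement and acute phase genes. Differences of lists between the times were not tested.

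The difference between NDMA and saline itself changed with time for 47 genes (0.469% of 10020), 20 of them with a more positive difference at 10 months and 27 with a more negative one, and for 74 genes without D209016 and D209018. Cdkn1a had a time term of −2.82 ± 0.49 (SE, adjusted p = 0.00254): it was at 1.51 to 8.48 normalized counts after saline and 97.7 to 349 after NDMA at 10 weeks, so that the increase was a smaller one at 10 months. Cd36, the fatty acid translocase, was at 39.2 to 110.2 and 137 to 218 at 10 weeks, without overlap, and at 96.2 to 219.9 (median 172) and 115 to 276 (median 183) at 10 months, where it did not pass (term −1.34 ± 0.23). Raet1e, a ligand of the NK cell receptor NKG2D, had medians of 6.10 and 36.0 at 10 weeks and of 18.6 and 24.2 at 10 months (term −2.75 ± 0.51). Sprr1a, a cornified envelope protein, had no read in any saline-treated liver at 10 weeks and 19.7 to 113 normalized counts after NDMA, and was below the mean of 5 at 10 months (term −3.33 ± 0.59). Hao2 had medians of 3.34 and 5.72 at 10 weeks, against 47.9 and 4.70 at 10 months (term −3.14 ± 0.57). Mup11, a major urinary protein with many close copies, went the other way (term 4.92 ± 0.89), with medians of 5670 and 282 at 10 weeks and of 205 and 284 at 10 months.

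**Figure D5:**
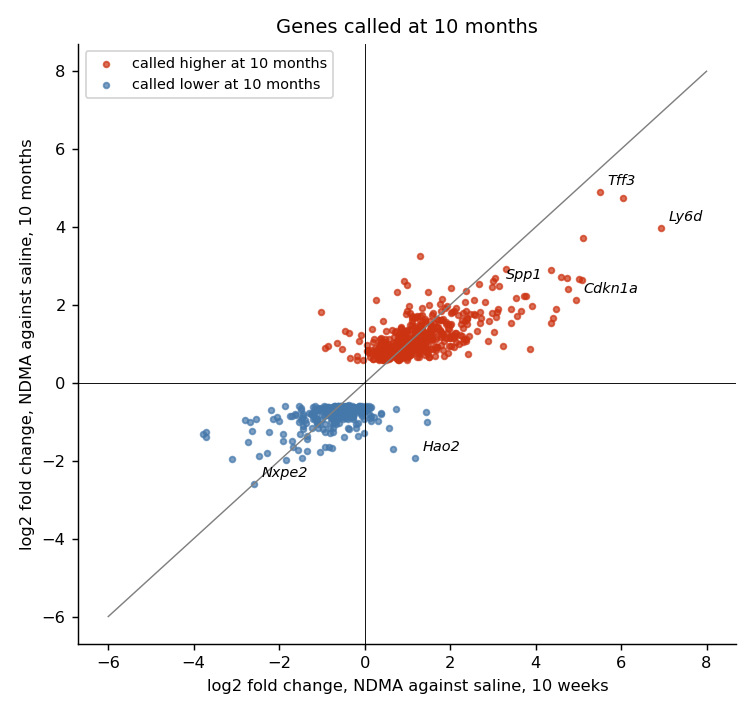
Log2 fold change, NDMA against saline, at 10 months (y axis) and at 10 weeks (x axis) for genes called at 10 months and tested at both times, red called higher and blue called lower, with the line of equality. Cdkn1a lies far below the line and Hao2 is lower only at 10 months.

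WT livers 10 months after the same treatment (13 NDMA, 10 saline) carried 3 batch labels, and only 5 and 3 libraries shared the label of the Mgmt-/- livers. The difference between NDMA and saline differed between the genotypes for 122 of 9220 genes (1.32%, genotype by treatment term, edgeR on reads with batch and sex as terms), 74 of them more positive in Mgmt-/- livers and 48 more negative. With only the shared batch the count was 6, and without D209016 and D209018 it was 132. Nxpe2, with a genotype term of −1.99 (adjusted p = 7.74e-05), was at 20.46 to 66.5 normalized counts after saline and 5.22 to 52.3 after NDMA in WT livers, with wide overlap. Spp1 (term 2.92) was at 49.4 to 158 and 13.01 to 179.9 in WT livers, against no overlap in Mgmt-/- livers. Mfge8, an adaptor for the uptake of dying cells (term 2.18), had WT medians of 12.6 and 12.1, against 11.2 and 42.9 in Mgmt-/- livers. For Slc39a4, a zinc importer (term 1.72), the WT medians were 46.3 and 42.1 and the Mgmt-/- medians 56.1 and 120.3. Dct (term −2.59) had WT medians of 23.9 and 51.4 and Mgmt-/- medians of 41.7 and 9, and Hao2 (term −2.46) WT medians of 13.6 and 8.63. Of these 6 genes, only Dct (−3.31, adjusted p = 0.0474) and Hao2 (−3.78, adjusted p = 0.00714) kept their call within the shared batch. The other 4 kept their direction there, with terms of 3.18 for Spp1, 1.75 for Slc39a4, −1.67 for Nxpe2 and 1.63 for Mfge8 and adjusted p values from 0.161 to 0.308 in edgeR.

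Markers of tissues that a dissected liver piece could carry along were looked at last. Of 8 pancreas genes in the table only Cela1 was tested, at 22.2 to 143 (median 58.4) after saline and 23.5 to 129.6 (median 57.9) after NDMA (adjusted p = 0.507), and no muscle or kidney gene passed the filter. Of 6 red cell genes tested none was called, although D209016 held far more of the beta-globins than any other liver. Of 2 adipose genes tested, Fabp4, which macrophages also express, was higher (10.3 to 36.5 (median 19.9) after saline, 11.3 to 212 (median 54.4) after NDMA), and Car3, which hepatocytes express abundantly, was at 1799.7 to 14135 (median 3828) and 1026 to 12454 (median 4062) and did not pass (adjusted p = 0.257).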

How the data were processed

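Libraries were sequenced from transcript 3′ ends. Per the labels and the study's methods, the authors aligned reads with STAR to GRCm38 (mm10), counted them per gene with ESAT and scaled them with DESeq2 size factors within each genotype. The deposited values are therefore normalized counts, a signal never below 0. Tool versions, the gene annotation, whether molecular identifiers were collapsed and whether counting used strand are not given in the sources used here. In all libraries compared here 100% of the values came out as whole reads within 0.1, which gave the depth of each library (713584 to 2752555 reads in these livers) and allowed count tests. Intervals and floors cover counting error only, and p-values measure the spread between mice.

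Groups were taken from the labels, which name 13 saline-treated Mgmt-/- mice at month 10, 1 of them not analysed here. The members, gene lists and tests were chosen with earlier results of these data known. NDMA and saline were compared with limma 3.58.1 (R 4.3.3) on log2(value + 1) with trend and robust variance estimates and sex as a term, over the 10066 genes whose mean was 5 or more, and p-values were adjusted by Benjamini-Hochberg over all of them. Fold changes on this scale understate those of low genes. Genes were called at an adjusted p under 0.05 with a log2 fold change beyond 0.58, and interaction terms at an adjusted p under 0.05 alone. The genotype comparison used edgeR 4.0.16 quasi-likelihood tests on the recovered reads of both tables. The lists were described by counts and medians and not tested. Genes named in the text were the 15 largest increases and decreases with a gene name, up to 4 called members of each list with the lowest adjusted p, the extreme members of the tumor and cell type lists, the 6 genes with the lowest adjusted p of each term, the 6 genes that most set apart each of the 3 most distant livers, and Mgmt, Cdkn1a and Cyp2e1. Others, such as defining markers without a call, the genes without overlap and Malat1, were named after their values were seen. On simulated data of 10066 genes with 200 changed, the limma comparison recovered 62% to 80% of genes changed by 1 log2 unit and 96% to 100% of those changed by 2, with 3.98% of calls false, and the sex term 6% to 12% and 60% to 64%. Unchanged genes were simulated independently, with the same mean in all livers apart from depth. Sex differences and distant livers such as D209016 were left out, so that these shares may not hold for the real livers. Alternatives were other pseudocounts, filters, scalings and covariates, DESeq2 1.42.0, each sex alone and each liver left out. Leaving out D209016 and D209018 together and the overlap in reads per total reads were chosen after seeing the data. Gene positions are from GENCODE vM21, counted from 1. Some genes that the rule names are not reported here.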

Additional observations from a re-analysis of the deposited data

Results flagged for a closer look

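The 6 genes with the strongest sex term were looked at in each of the 4 groups of livers by treatment and sex, and 2 of these sets of values held a liver far from the rest of its group, where chance alone marks about 1 in 20. The saline-treated female D209039 had the lowest Cyp2b13 of its group, at 207 normalized counts, and the NDMA-treated female D209046 had the highest Ifi47, at 119.

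The difference between NDMA and saline differed between males and females (male minus female term, log2) for Cyp2b13 by 2.30, Lgals3 by 2.19, Sult2a2 by 3.09, Cd53 by 2.70, Ifi47 by 2.37 and Nmrk1 by 2.05 (limma, adjusted p = 0.0164 for each). It differed between 10 months and 10 weeks for Cd36 (−1.34), Cdkn1a (−2.82), Sprr1a (−3.33), Hao2 (−3.14), Raet1e (−2.75) and Mup11 (4.92), with adjusted p from 0.00254 to 0.00438 in limma. It differed between Mgmt-/- and WT livers for Nxpe2 (−1.99), Slc39a4 (1.72), Mfge8 (2.18), Spp1 (2.92), Dct (−2.59) and Hao2 (−2.46), with adjusted p from 7.74e-05 to 0.00228 in edgeR.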

How the results depend on the processing

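The counts of genes higher and lower after NDMA (478 and 301) stayed within 1.5 times of these values under the other pseudocounts, scalings and tools, with these exceptions. Females alone gave 137 higher and 140 lower, males alone 156 lower, a mean of at least 20 gave 242 higher (beside 267 lower), and a fit without sex gave 194 lower. DESeq2 and edgeR gave 628 and 264 and 508 and 267. Leaving out 1 liver gave 412 to 512 higher and 214 to 347 lower, and 29.9% to 33.5% of the variation to treatment. The genes with a sex term (34) numbered 7 once all libraries were brought to equal totals, 76 with a pseudocount of 5, 18 in edgeR, 4 without D209016 and D209018 and 5 to 404 with 1 liver left out. The spread test called 0 genes with a mean of at least 20 and with equal totals, and 0 to 1 with 1 liver left out. Measured from the group mean, chosen after seeing the data, it called 1 gene. The genes with a time term (47) numbered 74 with a pseudocount of 5, 74 without D209016 and D209018 and 39 to 68 with 1 liver left out. The genes with a genotype term (122) numbered 6 within the shared batch and 214 without libraries under 300000 reads. The causes were not tested. Of 4756 combinations of 127 named genes with a setting, 4540 kept their direction and side of the threshold, 202 lost a call, 5 gained one and 9 changed sign, none of a called gene. The sign changes were Car2 in females alone (−0.24), Sdc1 in females alone (0.068), Wfdc21 in males alone (0.45) and Hbb-bs with total reads as a term (−0.086), in females alone (−1.07), with 1 liver left out (−0.21 to 0.33, below 0 without D209012, D209014 or D209016) and without D209016 and D209018 (−0.38). No paired analysis was possible because each mouse has its own code and no number is shared between the groups. Counting error limits genes of a few normalized counts, among them most T, B and dendritic cell markers that had a row. Immunoglobulin and T cell receptor genes were at 0 or without a row, and the reason was not tested.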
